A study of Rattus norvegicus with 78 samples.

Results

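Arrays of the Flinders Sensitive Line (FSL) fell into a low and a high class by the level of Eif4ebp2, and the classes were the 2 cohorts of the study. In each brain region the classes were chosen by the measured level of Eif4ebp2 alone: the log2 intensities of the 1 probeset that the annotation gives to this gene were sorted over the 17 FSL arrays and split at the widest gap. This gave 9 low and 8 high arrays in the hippocampus (HIP) and 9 low and 8 high arrays in the prefrontal/frontal cortex (P/FC), 34 of the 78 arrays of the series. In both regions the 9 low arrays were all 9 FSL arrays of cohort 1 and the 8 high arrays were all 8 FSL arrays of cohort 2. The level was to be compared with cohort as a covariate. That model could not be fitted, because no cohort held both levels, and every difference between low and high arrays below is also a difference between the cohorts.

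FSL rats were bred from Sprague-Dawley stock for strong responses to an anticholinesterase and are used to model depression, and the Flinders Resistant Line (FRL) was bred for weak responses and serves as its control. The arrays used here were from adult male FSL rats of cohort 1 and of cohort 2, with FRL rats of cohort 1 (12 arrays a region) and cohort 2 (10 arrays a region) for comparison. All animals had been through a forced swim test and a rest period before the right hippocampus and the whole right frontal lobe were taken, so that P/FC is not a single cortical area and can hold underlying tissue. Per the study's methods the later cohort came from the same colony, each cohort was labelled with its own reagents and chip lot in 2 batches a region, and the labels do not say which array belonged to which batch. Level, cohort, colony generation, reagents and chip lot therefore cannot be told apart. The values are normalised intensities on a linear scale with no unit, and a bright probeset is not comparable with another probeset. Arrays of one line, cohort and region correlated at 0.936 to 0.980, no array duplicated another, and nothing in the labels ties the HIP array of an animal to its P/FC array.

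Eif4ebp2 encodes a small protein that holds back the start of translation. The 4E-BP proteins bind eIF4E, the factor that recognises the cap at the start of a messenger RNA, and keep it from joining the scaffold eIF4G. When the kinase complex mTORC1 phosphorylates them they let go of eIF4E and cap-dependent translation proceeds. 4E-BP2 is the main 4E-BP of the mammalian brain, where it is known for its part in synaptic plasticity and in the supply of synaptic proteins such as the neuroligins.

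In HIP the low arrays had Eif4ebp2 intensities of 61.8, 75.1, 78.0, 79.1, 80.2, 85.9, 89.2, 101.8 and 104.4. The high arrays had 207.1, 214, 223, 228, 237, 239.8, 248 and 251.6. Nothing lay between 104.4 and 207.1, a gap of 0.99 on the log2 scale (1.98-fold), while the next widest gap was 0.28. In P/FC the low arrays had 76.1, 78.6, 83.5, 87.4, 87.6, 93.7, 94.8, 95.7 and 96.5. The high arrays had 207.7, 221, 242, 247.7, 253, 256, 286 and 300.2. The values just inside the split were 96.5 and 207.7 there, a gap of 1.11 (2.15-fold) against a next widest gap of 0.16. The means were 84.0 ± 13.3 (SD, n = 9) and 231 ± 15.8 (SD, n = 8) in HIP and 88.2 ± 7.59 (SD, n = 9) and 252 ± 30.5 (SD, n = 8) in P/FC. The high class was 2.78-fold above the low class in HIP and 2.85-fold in P/FC. As these values made the classes, they are given with no test.

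**Figure D1:**
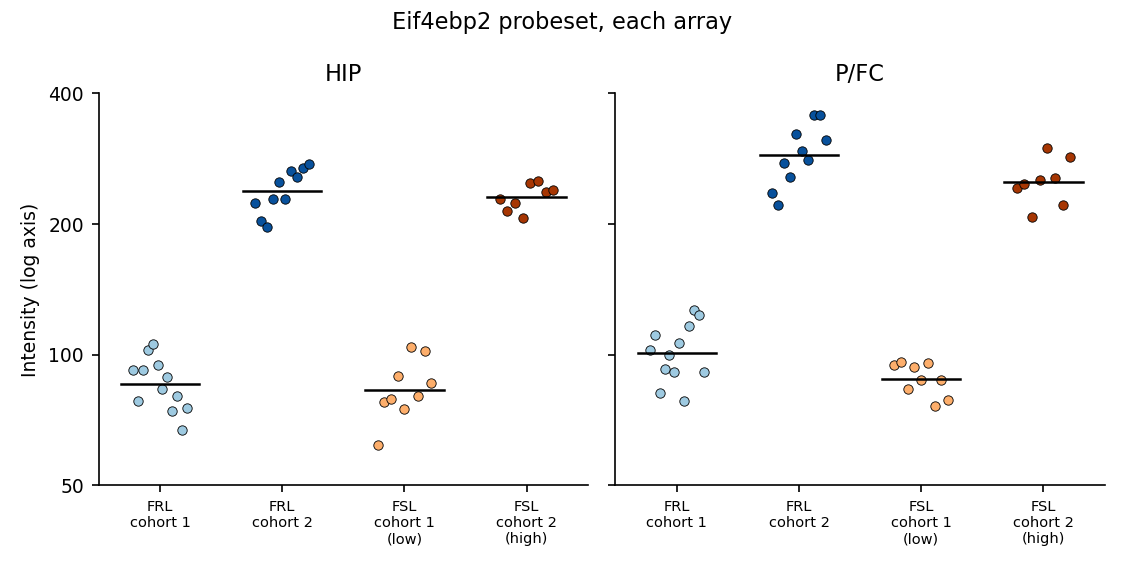
Intensity of the Eif4ebp2 probeset on each array (vertical axis, log scale) by region, line and cohort, with 1 point for each array and a bar at the geometric mean. In FSL and FRL alike, every cohort 1 array lies below every cohort 2 array, and in FSL HIP nothing lies between 104.4 and 207.1.

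FRL arrays, which had no part in the split, had the same 2 levels. In HIP the 12 FRL arrays of cohort 1 lay between 67.1 and 105.6 (median 86.0) and the 10 of cohort 2 between 197.2 and 275.3 (median 239). In P/FC they lay between 78.4 and 127.1 (median 101) and between 220.8 and 357.5 (median 288). The cohorts did not overlap in either region. Cohort 1 was lower than cohort 2 by 1.48 on the log2 scale in HIP (difference -1.48, SE 0.0784, limma adjusted p = 5.07e-11) and by 1.52 in P/FC (difference -1.52, SE 0.0955, limma adjusted p = 1.37e-09). The lines did not pass the adjusted test against each other within a cohort. FSL minus FRL was -0.04 in cohort 1 and -0.05 in cohort 2 in HIP (limma adjusted p = 0.872 and 0.903), and -0.20 in each cohort in P/FC (adjusted p = 0.163 and 0.220). Before adjustment the P/FC values were p = 0.0296 and 0.0364 by limma, both under the unadjusted threshold of 0.05 that the study used. The level of Eif4ebp2 thus went with cohort in both lines.

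The relatives of Eif4ebp2 did not pass the test. Eif4ebp1, the 4E-BP best known from insulin-responsive tissues, had HIP intensities of 129.6 to 180.3 (median 156) in low arrays and 149 to 176 (median 164) in high arrays. In P/FC it had 122 to 175 (median 149) and 147 to 174 (median 159). These ranges overlapped, and low minus high was -0.07 in HIP (adjusted p = 0.424) and -0.12 in P/FC (adjusted p = 0.285). Eif4ebp3, the third member, differed by 0.19 (SE 0.0944, adjusted p = 0.160) and by 0.12 (SE 0.0760, adjusted p = 0.320). Eif4e itself, the target of the family, differed by -0.06 (SE 0.0656, adjusted p = 0.570) in HIP and by 0.02 (SE 0.0750, adjusted p = 0.860) in P/FC. With no second Eif4ebp2 probeset on the annotated array, the level of the gene could not be checked by other probes.

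Many transcripts differed between low and high arrays. Of 22852 probesets tested in HIP, 4278 passed an adjusted p of 0.05 (18.7%), 2440 higher (10.7%) and 1838 lower (8.04%) in low arrays, with a median size of 0.31 on the log2 scale. In P/FC 3378 of 23678 passed (14.3%), 1604 higher (6.77%) and 1774 lower (7.49%). Few were large: 66 in HIP and 53 in P/FC differed by over 1 on the log2 scale. The ranges of the 2 classes lay apart for 843 probesets in HIP (3.69%, with 2.05% below and 1.64% above in low arrays) and 556 in P/FC (2.35%, with 1.32% below and 1.03% above). Scaling all arrays to the same distribution of intensities turned the balance in HIP to 2121 higher and 2240 lower, so that no overall direction can be read there.

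Both regions shared 1163 probesets that passed with the same sign, 5.24% of the 22210 tested in both, against 50 with opposite signs. These were 27.2% of the HIP calls and 34.4% of the P/FC calls. Lower in low arrays, as Eif4ebp2 was, were 628 (2.83%), and 535 were higher (2.41%). A symbol was known for 774 of the 1163, or 66.6%, against 71.8% of the probesets tested. Classes that lay apart in both regions the same way were seen for 192 (0.864%), of which 129 were below in low arrays. The shared probesets had a median intensity of 164, and all tested probesets one of 101. Per the study both regions came from the same animals, so the calls of the 2 regions are not independent.

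Snx27, Sppl2a and Gsk3b were among the largest shared falls. Snx27 encodes a sorting nexin that returns receptors from endosomes to the cell surface. Its probeset 1377526_at ran from 22.3 to 63.8 (median 33.9) in low HIP arrays and from 87.0 to 135 (median 95.1) in high ones. Its P/FC values ran from 8.54 to 37.1 (median 20.1) and from 56.1 to 83.8 (median 68.5). The classes lay apart in both regions, with differences of -1.47 (SE 0.162, adjusted p = 8.71e-06) and -1.99 (SE 0.239, adjusted p = 3.69e-05). Sppl2a, an intramembrane protease of lysosomes, read 23.7 to 43.4 against 62.8 to 101.8 in HIP and 19.2 to 38.2 against 57.5 to 88.5 in P/FC on probeset 1375362_at. It too lay apart in both regions, with differences of -1.18 (adjusted p = 5.65e-06) and -1.27 (adjusted p = 5.53e-06). In P/FC the low medians of these Snx27 and Sppl2a probesets, 20.1 and 29.2, were near background. Both lay under 30, the intensity that a tested probeset had to exceed on 6 or more arrays. Gsk3b encodes a kinase that insulin and Wnt signals hold in check. Its probeset 1370267_at read 33.9 to 78.6 against 84.0 to 114 in HIP and 33.6 to 89.2 against 129 to 195 in P/FC, again apart, and the differences were -0.79 (adjusted p = 0.000374) and -1.48 (adjusted p = 5.38e-05).

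Atp1b2, the beta subunit of the sodium pump that astrocytes carry, was lower in low arrays on probeset 1369798_at, at 42.3 to 241 (median 151) against 412 to 503 (median 431) in HIP. In P/FC the classes overlapped, at 54.6 to 239.8 (median 106) against 138 to 353 (median 223). Its differences were -1.79 (SE 0.270, adjusted p = 0.000218) and -1.01 (SE 0.259, adjusted p = 0.0147). Dusp18, a phosphatase, differed on 1378749_at by -1.45 (adjusted p = 0.000140) and -1.88 (adjusted p = 0.00166), from P/FC intensities of 4.10 to 24.4 against 11.4 to 49.4, which are near background. The low HIP median of this probeset, 22.9 against 61.1 in high arrays, was near background too. No other Dusp18 probeset passed in P/FC: 1382831_at, 1396275_at and 1398009_at differed by -0.24, -0.14 and -0.24 (adjusted p = 0.109, 0.398 and 0.135). In HIP these 3 differed by -0.28, -0.30 and 0.15 (adjusted p = 0.0297, 0.0224 and 0.512). Unnamed probesets 1382068_at and 1378510_at were the other shared falls beside the early genes described further on. The first differed by -1.88 in HIP and -0.76 in P/FC (adjusted p = 8.36e-06 and 0.0166), the second by -1.36 and -1.04 (adjusted p = 0.000465 and 0.00577).

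Of the 10 largest shared rises, 8 had no gene symbol. Pogz, a zinc finger protein of chromatin, had on probeset 1389784_at 88.6 to 168 (median 136) in low HIP arrays and 43.0 to 71.1 (median 53.4) in high ones. P/FC arrays gave 126 to 159 (median 134) and 53.0 to 77.7 (median 66.3). The classes lay apart in both regions, with differences of 1.29 (SE 0.116, adjusted p = 1.08e-06) and 1.05 (SE 0.0670, adjusted p = 1.54e-07). Eea1, a tether of early endosomes, rose by 1.24 in HIP (80.5 to 165 against 46.7 to 65.3, adjusted p = 1.65e-05) and by 0.99 in P/FC (103 to 177 against 43.0 to 120.3, adjusted p = 0.00122), where the classes overlapped. Among the unnamed, 1385594_at had the tightest classes, at 195 to 229.9 (median 214) in low and 53.8 to 96.1 (median 87.8) in high HIP arrays. P/FC values were 179 to 219.5 (median 202) and 86.8 to 137 (median 101). It lay apart in both regions, with differences of 1.38 (adjusted p = 3.84e-08) and 0.94 (adjusted p = 9.46e-07).

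A difference often held for 1 probeset of a gene and not for its others. Of 3269 genes with several probesets tested in both regions, 443 had a shared call, and in 375 of these (84.7%) a single probeset carried it. In the other 68 several probesets passed, in one direction for 66 and in opposite directions for 2. Snx27 was one of the genes with several shared calls: 1377526_at fell as above, 1381394_at by 0.85 in HIP and 0.35 in P/FC (adjusted p = 0.000619 and 0.00764), and 1379804_at by 0.28 and 0.26 (adjusted p = 0.00417 and 0.0236). Probeset 1372203_at of Snx27 differed by -0.02 and 0.00 (adjusted p = 0.852 and 0.977). For Sppl2a, 1383999_at differed by 0.05 and 0.18 (adjusted p = 0.627 and 0.126) and 1395744_at by 0.46 and 0.23 (adjusted p = 0.00635 and 0.226), so that one probeset of the gene was lower and another higher in low HIP arrays. The second probeset of Eea1, 1398579_at, differed by 0.11 and 0.09 (adjusted p = 0.207 and 0.232). Pogz and Atp1b2 moved on both of their probesets, by 0.48 and 0.38 on 1384349_at (adjusted p = 0.000196 and 0.00654) and by -0.45 and -0.25 on 1379906_at (adjusted p = 2.85e-05 and 0.0136). Single probesets of a gene can read different ends or forms of its transcripts, and the probe positions were not analysed here.

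Immediate early genes, which neurons switch on within minutes of activity and most of which encode transcription factors, made the gene list with the largest share of calls in P/FC. In P/FC 13 of the 16 tested were lower in low arrays and 1 was higher (87.5% called, against 14.3% of all probesets), with a median difference of -0.73 where that of all probesets was -0.01. In HIP 6 were lower and 1 higher (43.8% against 18.7%), with a median of -0.30 against 0.01. Fos, the founder of the group, read 20.4 to 60.3 (median 30) in low and 48.6 to 125 (median 72.0) in high HIP arrays. In P/FC it read 23.3 to 230.2 (median 68.0) and 188 to 306 (median 236). The classes overlapped in both regions, and the differences were -0.998 (SE 0.219, adjusted p = 0.00429) and -1.66 (SE 0.367, adjusted p = 0.00614). These values are from probeset 1375043_at. Another Fos probeset tested in P/FC, 1371283_at, differed by 0.11 there (adjusted p = 0.640).

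Of the Nr4a nuclear receptors, Nr4a1 and Nr4a2 fell in both regions, and Nr4a3 did so on 1 of its 3 probesets. Nr4a3 on probeset 1369067_at had 270.4 to 394 (median 338) in low and 487 to 525 (median 508) in high HIP arrays, with no overlap. The P/FC values were 48.2 to 132 (median 74.6) and 172 to 294 (median 255), again with no overlap. The differences were -0.62 (SE 0.0657, adjusted p = 5.65e-06) and -1.63 (SE 0.172, adjusted p = 1.09e-05). Nr4a2, a receptor known from dopamine neurons, differed by -1.62 and -1.48 on 1387410_at (adjusted p = 0.000314 and 0.00582) and by -0.78 and -0.58 on 1369007_at (adjusted p = 9.19e-06 and 0.00453). In P/FC the medians of 1387410_at were 15.9 in low and 47.4 in high arrays, and the low one is near background. Nr4a1 differed by -0.55 (154 to 271 against 269.8 to 514 in HIP, adjusted p = 0.00368) and by -1.08 (203 to 526.1 against 415 to 875 in P/FC, adjusted p = 0.00141). Another probeset of Nr4a3, 1393389_at, which stood for the gene in the P/FC list, was called in opposite directions, higher in low HIP arrays (0.18, adjusted p = 0.0243) and lower in P/FC (-0.42, adjusted p = 0.0134). The third, 1369217_at, differed by -0.39 and -0.50 and passed in neither region (adjusted p = 0.164 and 0.0841).

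Of the Egr, Fos and activity-regulated genes, more passed in P/FC than in HIP, though for few of them did the difference between the regions itself pass. Egr2, a zinc finger transcription factor, had 61 to 159.6 (median 75.4) in low and 161 to 233 (median 209) in high P/FC arrays. The classes lay just apart, and the difference was -1.30 (SE 0.150, adjusted p = 2.49e-05), with -0.44 in HIP (adjusted p = 0.0438), where 1 high array stood at 161 and the call was lost in 9 of 17 fits that left out 1 array. Fosb had 5.91 to 42.0 (median 36.9) against 58.4 to 107 (median 80.1) in P/FC, a difference of -1.46 (SE 0.300, adjusted p = 0.00374), and -0.35 in HIP (adjusted p = 0.0853). Arc, which traffics glutamate receptors at synapses, had 129.7 to 569 (median 326) against 396 to 1004 (median 718) in P/FC, where the classes overlapped and the difference was -1.29 (SE 0.284, adjusted p = 0.00580). In HIP Arc differed by -0.27 (adjusted p = 0.238). Egr1 differed by -0.75 in P/FC (882 to 1529 against 1380 to 2202, adjusted p = 0.000207) and by -0.33 in HIP (adjusted p = 0.0658). The probeset 1370997_at of Homer1, whose short form is an early gene product of the synapse, had 34.4 to 109 (median 85.3) against 149 to 351 (median 286) in P/FC, apart, with a difference of -1.78 (SE 0.213, adjusted p = 3.69e-05). The 1368318_at probeset of Homer1, which stood for the gene in the lists, differed by -0.24 in P/FC (adjusted p = 0.0471). Of its others there, 1370454_at differed by -0.98 (adjusted p = 0.00354), and 1368319_a_at and 1370656_a_at did not pass (adjusted p = 0.142 and 0.199). Egr3 passed in neither region (-0.14 and -0.19, adjusted p = 0.386 and 0.188). Tested over both regions, the low minus high difference was further below 0 in P/FC for Egr2 (adjusted p = 0.0189) and Homer1 on 1370997_at (adjusted p = 0.0283). In FSL HIP this Homer1 probeset differed by -0.51 (adjusted p = 0.161). Cohort 1 minus cohort 2 in FRL was -1.45 in HIP and -1.42 in P/FC for it, and -0.74 and -1.29 for Egr2. A difference between regions was not tested in FRL. In FSL the regions did not pass as different for Fos (adjusted p = 0.399), Fosb (0.0503), Arc (0.0681), Egr1 (0.133) or Egr4 (0.0744). Jund, a Jun family member that cells hold at a steady level, was the exception in direction and rose in both regions on 1393138_at. It rose by 0.20 in HIP (1196 to 1368 against 977 to 1150, adjusted p = 0.00265) and by 0.25 in P/FC (1399 to 1637 against 1207 to 1378, adjusted p = 0.00108). Another Jund probeset tested in P/FC, 1375768_at, differed by -0.02 (adjusted p = 0.940).

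**Figure D2:**
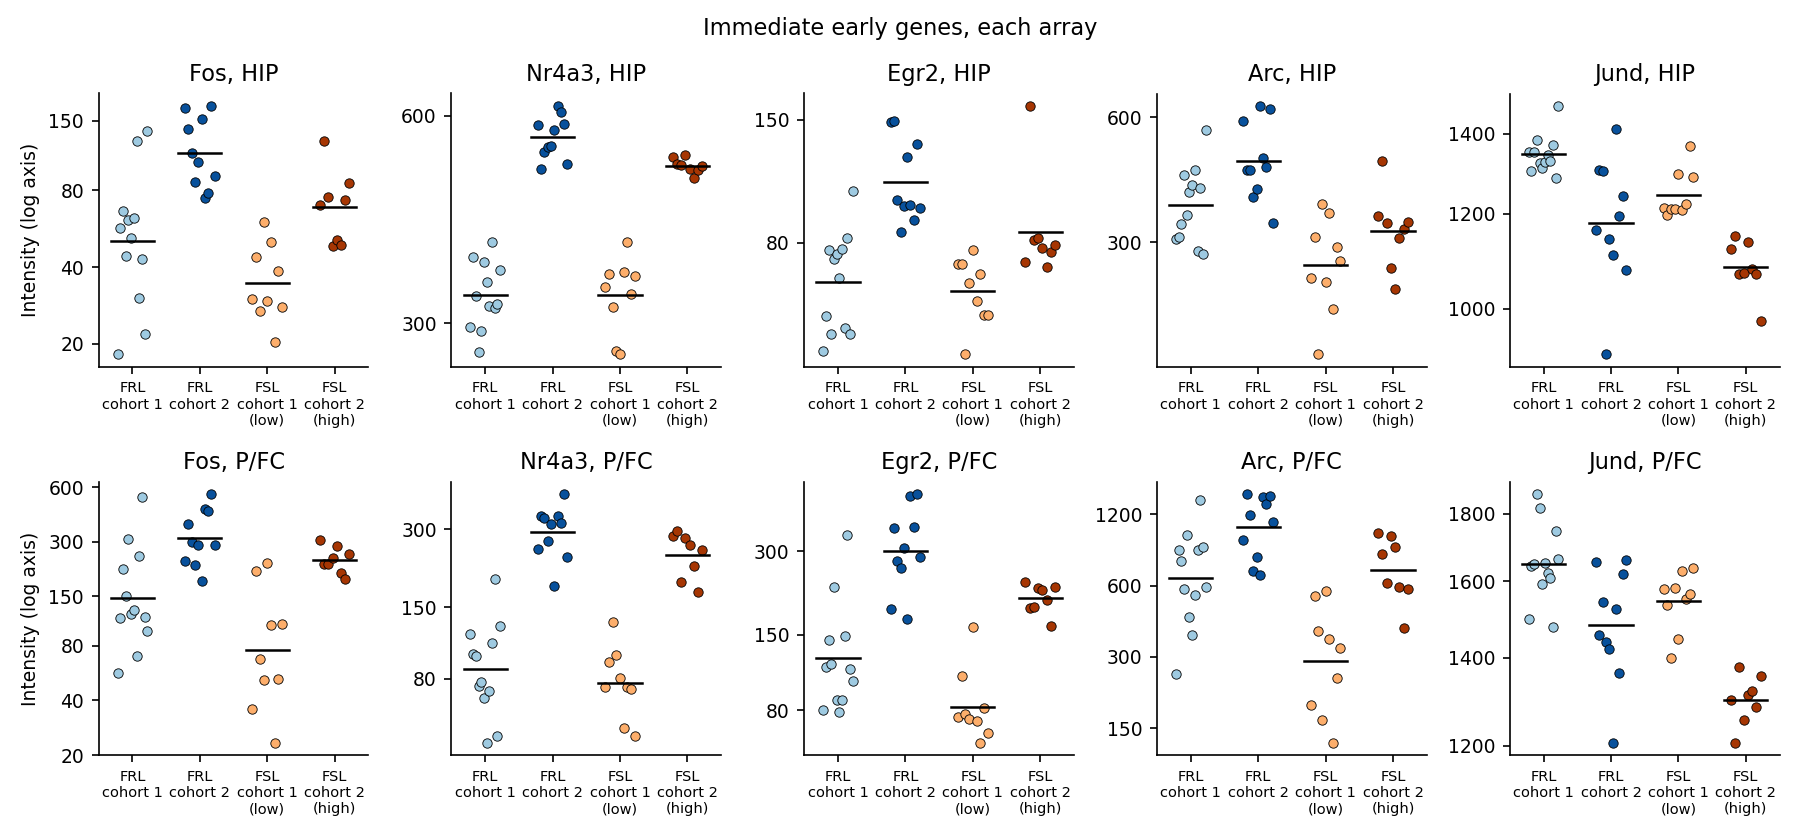
Intensity of 5 early genes (Fos, Nr4a3 by 1369067_at, Egr2, Arc and Jund, log scale) on each array by line and cohort in HIP and P/FC, with a bar at the geometric mean. Fos in P/FC lies at 23.3 to 230.2 in low and 188 to 306 in high FSL arrays, and Jund lies the other way in both regions.

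Early genes were lower in cohort 1 of FRL as well. In HIP 9 of the 16 were lower and 1 higher in cohort 1 (median -0.49) and in P/FC 7 were lower and none higher (median -0.55), where of all probesets 8.34% were lower and 10.9% higher in HIP, and 4.86% lower and 5.09% higher in P/FC. Fos differed by -1.15 and -1.10 in FRL (adjusted p = 0.00748 and 0.0220), and Nr4a3 on 1369067_at by -0.76 and -1.74 (adjusted p = 6.76e-09 and 4.64e-06). Beside these falls, RNA measures moved with the class as described below. With the Actb ratio of 3' over 5' signal added to the model, 1 of the 6 early genes called lower in HIP and 2 of the 13 in P/FC still passed, and with the Gapdh ratio 4 and 6. All 6 and all 13 were still below 0 in both fits. With the Actb ratio their median size was 0.469 in place of 0.586 in HIP and 0.730 in place of 0.789 in P/FC, while the median SE was 0.295 in place of 0.131 and 0.238 in place of 0.150.

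The sequence before an early gene often carries binding sites for the factors CREB and SRF, which couple it to activity. The promoters of 2 early genes that fell in both regions are shown, Egr2 for its site of either kind and Nr4a1 for its number of sites. They are RefSeq sequences of GRCr8, 250 bases before to 50 after the start, at chr20:21054392-21054691 on the minus strand and chr7:134259888-134260187 on the plus strand, and capitals mark the motifs. The arrays measure the transcripts and not these sequences.
Egr2: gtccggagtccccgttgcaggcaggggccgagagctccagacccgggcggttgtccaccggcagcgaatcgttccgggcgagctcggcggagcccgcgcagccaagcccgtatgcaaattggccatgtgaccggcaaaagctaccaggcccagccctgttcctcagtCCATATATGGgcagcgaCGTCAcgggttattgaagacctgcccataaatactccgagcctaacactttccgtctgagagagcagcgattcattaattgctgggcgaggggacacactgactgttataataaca
Nr4a1: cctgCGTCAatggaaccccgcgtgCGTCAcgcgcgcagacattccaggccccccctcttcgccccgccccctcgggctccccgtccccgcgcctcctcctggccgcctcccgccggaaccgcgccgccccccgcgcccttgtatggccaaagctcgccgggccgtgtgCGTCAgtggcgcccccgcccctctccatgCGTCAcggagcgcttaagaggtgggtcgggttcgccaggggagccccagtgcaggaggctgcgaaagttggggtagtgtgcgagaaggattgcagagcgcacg
In these letters, the short CREB site TGACG, read on both strands, occurs 1 time in Egr2 and 4 times in Nr4a1, and the CArG box of SRF occurs 1 time in Egr2 and not in Nr4a1. Of the 16 early genes tested, 11 had a promoter in the table (no match for Arc, Egr3, Fos, Jun and Nr4a3). The short site was in 9 of the 11 and in 21.2% of all 33469 promoters. The full CREB site TGACGTCA, which holds the short site on each strand, was in 3 of the 11 (Dusp1, Ier2 and Jund) and in 1.83% of all promoters. A CArG box was in 2 of the 11 (Egr1 and Egr2) and in 1.64% of all. Jund, which rose, holds the full site and Fosb, which fell in P/FC, holds none of the 3 motifs in this window.

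Genes around 4E-BP2 in the translation pathway passed at a share near that of all probesets in HIP (19.0% against 18.7%) and below it in P/FC (4.76% against 14.3%). Of 21 tested cap-binding and initiation factors, 1 was higher and 3 were lower in low HIP arrays, and 1 was higher in P/FC. The helicase Eif4a1 rose by 0.17 in HIP (adjusted p = 0.00867), and the scaffold Eif4g3 (-0.17, adjusted p = 0.00603), Cyfip2 (-0.17, adjusted p = 0.0201) and Fmr1, an RNA-binding repressor of translation (-0.39, adjusted p = 0.0243), were lower. In P/FC the one was Eif4b, a helper of the helicase, at 0.23 (adjusted p = 0.0354), a call lost in 11 of 17 fits that left out 1 array. A dimmer probeset of Eif4b that the list did not use, 1372124_at, was higher in low arrays in both regions (0.39, adjusted p = 0.00120, and 0.48, adjusted p = 0.00222). The median of the list was -0.003 in HIP and -0.02 in P/FC.

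The mTOR pathway, which sets whether 4E-BPs hold eIF4E, had 4 of 37 higher and 2 lower in HIP, and 2 higher and 1 lower in P/FC (16.2% and 8.11%, against 18.7% and 14.3% of all probesets). Rragd, a Rag GTPase that signals amino acids to mTORC1, had 63.1 to 123 (median 88.5) in low and 43.2 to 77.3 (median 46.4) in high HIP arrays, a rise of 0.76 (SE 0.153, adjusted p = 0.00232), and 0.47 in P/FC (adjusted p = 0.140). Lamtor2, of the complex that holds Rags on lysosomes, passed in both regions, at 0.21 (749 to 799 against 646 to 702, adjusted p = 0.000283) and at 0.17 (720.2 to 854 against 661 to 851, adjusted p = 0.0418), the latter lost in 13 of 17 fits that left out 1 array. Ddit4 and Ddit4l, inhibitors of mTORC1, went opposite ways in HIP, at -0.31 and 0.54 (adjusted p = 0.00399 and 0.00861). Irs2, which carries insulin signals, fell in P/FC by 0.55 (135 to 191 against 204 to 281, apart, adjusted p = 0.000336) and in HIP differed by -0.09 (adjusted p = 0.588). Mtor itself differed by 0.10 in HIP and 0.08 in P/FC (adjusted p = 0.0799 and 0.157).

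Neuroligins and other synaptic genes moved both ways. Their transcript levels do not show the translation that 4E-BP2 acts on. Of 15 neuroligins, glutamate receptors and scaffolds, 2 were higher and 2 lower in HIP, and 5 were higher and 1 lower in P/FC (26.7% and 40%, against 18.7% and 14.3% of all probesets). The lower one in P/FC was Homer1 on 1368318_at, which is also counted among the early genes. Grin2b, an NMDA receptor subunit, had 143 to 210.1 against 98.3 to 181 (medians 181 and 125) in HIP and 123 to 180.3 against 81.4 to 138 (medians 153 and 109) in P/FC. It rose by 0.44 (adjusted p = 0.0165) and 0.55 (adjusted p = 0.00577), and its other probeset, 1369745_at, differed by -0.38 and 0.05 (adjusted p = 0.0724 and 0.840). Gria1, an AMPA receptor subunit, rose by 0.43 and 0.46 (adjusted p = 0.00967 and 0.0253), and the P/FC call was lost in 2 of 17 fits that left out 1 array. Nlgn1 fell by 0.12 in HIP (adjusted p = 0.0220) and Nlgn3 rose by 0.32 in P/FC (adjusted p = 0.0425). Dlg4, the scaffold PSD-95, fell by 0.24 in HIP on 1387210_at (adjusted p = 0.00743), while 1395468_at of the same gene was higher by 0.19 (adjusted p = 0.0404) and the other two Dlg4 probesets differed by 0.02 and 0.01 (adjusted p = 0.888 and 0.949).

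More than the background share of ribosomal protein genes were higher in low HIP arrays, by small amounts. Of 41 tested, 22 were higher, none was lower and 19 did not pass (53.7% called against 18.7%), 40 had a positive difference, and the median was 0.12. Rps16 had 3456 to 3705 against 2936 to 3251 (difference 0.21, adjusted p = 0.000419) and Rpl35 2170 to 2588 against 1825 to 2116 (0.26, adjusted p = 0.000720), each with classes apart. In P/FC 4 of 42 were higher (9.52%) and the median was 0.08. In FRL HIP 11 were higher in cohort 1, with a median of 0.08. On the same FSL HIP arrays the blood markers Hbb and Alas2 were higher in the low class (1.52 and 0.91) and the Actb ratio of 3' over 5' signal was lower (0.596 against 0.731), and their part in the ribosomal values was not tested.

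**Figure D3:**
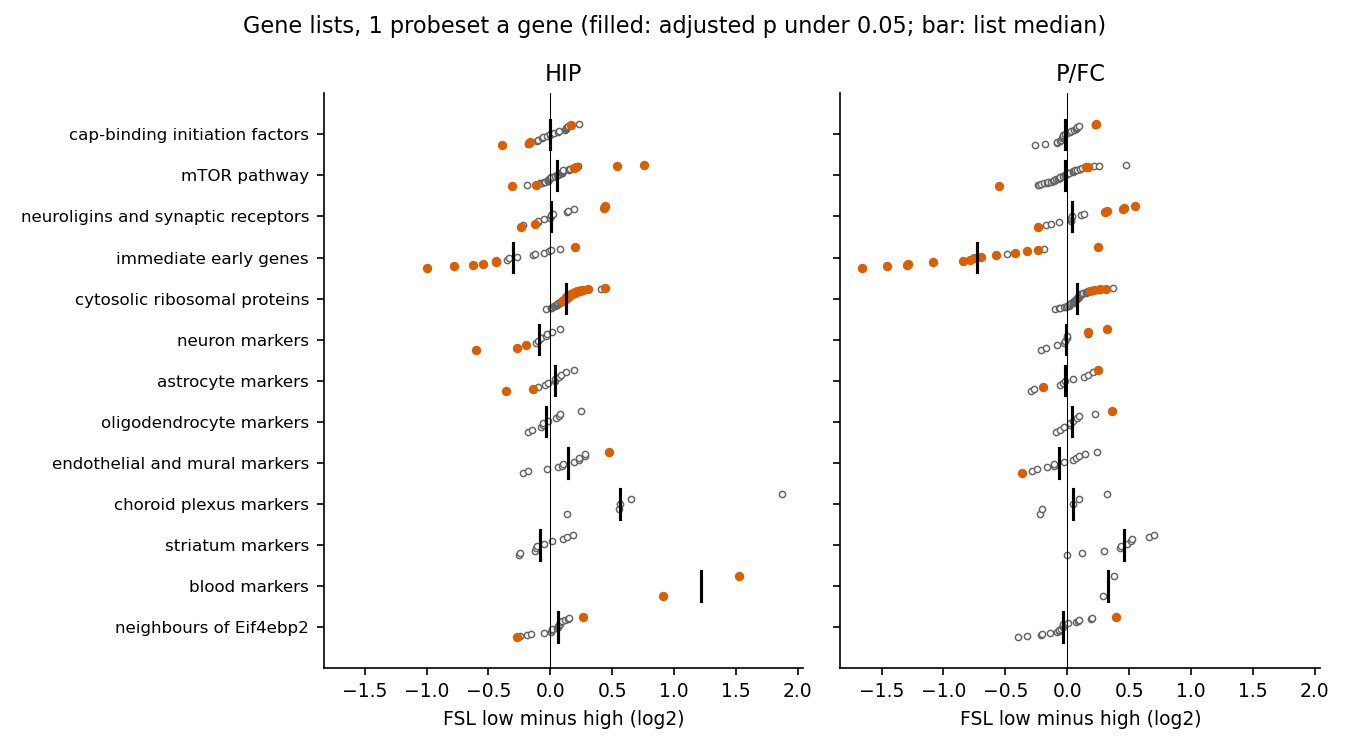
Low minus high difference (log2 scale) of each tested member of the gene lists in HIP and P/FC, with 1 point for each gene and a line at the list median. Early genes sit lowest, with medians of -0.30 in HIP and -0.73 in P/FC, and most other lists centre near the median of all probesets.

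Of the neighbours of Eif4ebp2 on chromosome 20, 2 passed the test in a region. Of the 25 genes on either side in the RefSeq order of GRCr8, 19 had a tested probeset in HIP and 20 in P/FC, of which 10.5% and 5% passed, against 18.7% and 14.3% of all probesets. Sgpl1, a lyase of sphingosine phosphate, was higher in low arrays in both regions (0.26, adjusted p = 0.0117, and 0.40, adjusted p = 0.0169). Unc5b, a netrin receptor, was lower in HIP (-0.27, adjusted p = 0.0390), a call lost in 10 of 17 fits that left out 1 array. No other neighbour passed, and the immediate neighbours Nodal and Csrp2-ps1 are named by order only.

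Some differences were large in 1 region and smaller or not called in the other. In HIP the unnamed 1371245_a_at had 320.4 to 1199 (median 557) in low and 107 to 289.7 (median 191) in high arrays, a rise of 1.73 (SE 0.274, adjusted p = 0.000341), and differed by 0.42 in P/FC (adjusted p = 0.404). In P/FC Vdac1, a channel of the outer mitochondrial membrane, had on 1386909_a_at 721 to 813 (median 768) in low and 251 to 455 (median 328) in high arrays, apart, a rise of 1.17 (SE 0.0932, adjusted p = 9.19e-07), and rose by 0.42 in HIP (adjusted p = 0.00153). Its other probeset, 1367706_at, rose by 0.26 and 0.11 (adjusted p = 0.000359 and 0.0217). Pbx4, a homeodomain protein, rose by 1.37 in P/FC (41.1 to 68.5 against 12.1 to 32.2, adjusted p = 7.18e-05), and Slc6a11, a GABA transporter of astrocytes, by 1.37 (33.7 to 70.9 against 7.89 to 39.4, adjusted p = 0.00281). In a fit over both regions, the difference between low and high arrays itself differed between P/FC and HIP for 1215 of 22210 probesets (5.47%), 586 of them higher in P/FC. Quantile scaling moved that balance to 681 of 1164. By this limma fit the regions differed for Vdac1 on 1386909_a_at (adjusted p = 0.00106). They did not pass as different for 1371245_a_at (adjusted p = 0.0681), Pbx4 (0.143) or Slc6a11 (0.0681).

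Cohort 1 and cohort 2 of FRL differed in much the same transcripts as low and high FSL arrays. In FRL 4394 probesets passed in HIP (19.2%) and 2357 in P/FC (9.95%). Of these, 2470 in HIP were called in FSL too (57.7% of the FSL and 56.2% of the FRL calls), and 1394 in P/FC (41.3% and 59.1%), each with the same sign. Across all probesets the FSL and FRL differences correlated at 0.80 in HIP and 0.70 in P/FC, over probesets that are not independent. Of the 1163 shared probesets, 663 (57.0%) passed in FRL in both regions and 1144 (98.4%) had the same sign in all 4 contrasts. The difference between lines was tested directly: by limma, no probeset passed in HIP or P/FC, with 972 and 1105 at an unadjusted p under 0.05 and smallest adjusted p of 0.153 and 0.998. For the early genes above and for the 20 largest shared falls and rises no difference between the lines passed either.

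**Figure D4:**
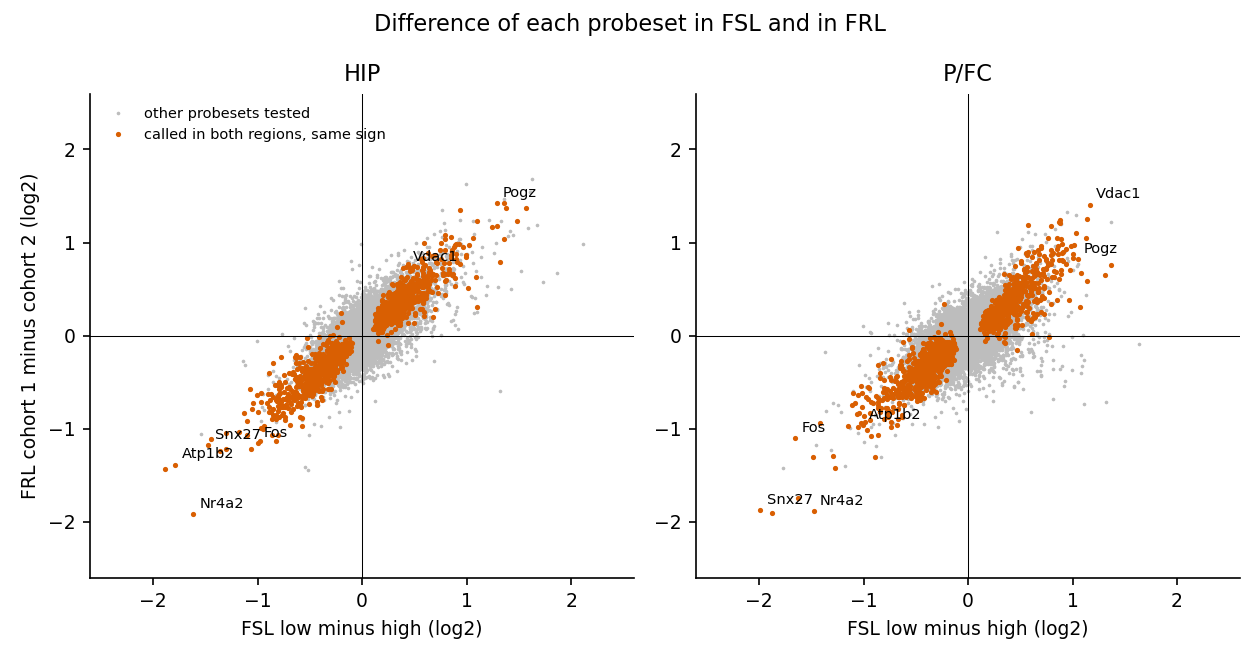
Cohort 1 minus cohort 2 in FRL arrays (vertical axis, log2) against low minus high in FSL arrays (horizontal axis, log2) for each tested probeset, HIP and P/FC apart, with some of the largest labelled. The points lie along the diagonal, with correlations of 0.80 in HIP and 0.70 in P/FC.

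Within a cohort, few probesets passed the adjusted test for a slope on the level of Eif4ebp2. A slope on its log2 intensity with cohort in the model used only the spread among arrays of one cohort. That spread was narrow, with SDs from 0.0996 (FSL HIP cohort 2) to 0.235 (FRL P/FC cohort 2) on the log2 scale. Few calls therefore do not show that little went with the level. In FSL 2 probesets passed in HIP, of Gabrb2, a GABA A receptor subunit (slope 1.99), and of Tmem163, a zinc transporter (slope -1.84), 0.00875% of those tested, both at an adjusted p of 0.0251, with 2086 at an unadjusted p under 0.05. By limma none passed in P/FC, with 1455 at an unadjusted p under 0.05 and a smallest adjusted p of 0.621. In FRL, none passed by limma in HIP (1125 at an unadjusted p under 0.05, smallest adjusted p = 0.111). In FRL P/FC 3 did by limma (0.0127%), with 2748 at an unadjusted p under 0.05. The 3 were Kcng3 (slope -1.26, adjusted p = 0.0249), Tet3 (slope 0.98, adjusted p = 0.0249) and 1392055_at (slope 1.398, adjusted p = 0.0451). None of these 5 passed in the other line.

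Control probesets and RNA measures moved with the class. All 18 hybridisation controls, bacterial transcripts added to each sample before hybridisation, were brighter in low arrays, by 0.15 to 0.65 on the log2 scale in HIP and 0.31 to 0.69 in P/FC. Their mean was 10.35 against 9.91 in HIP and 10.43 against 9.91 in P/FC (two-sided exact permutation tests, adjusted p = 0.00513 and 0.00110 over 8 tests). The Actb ratio, the log2 signal of its 3' probeset less that of its 5' probeset, which rises as RNA degrades or labelling shortens, was 0.596 in low against 0.731 in high HIP arrays. The classes lay apart, at 0.555 to 0.640 and 0.682 to 0.773 (exact permutation p = 4.11e-05, the smallest that 24310 permutations give, adjusted p = 0.000329). In P/FC it was 0.640 against 0.837 (exact permutation, adjusted p = 0.00110). The Gapdh ratio was lower in low arrays by 0.09 in P/FC (exact permutation, adjusted p = 0.00255) and differed by -0.06 in HIP (adjusted p = 0.107). FRL cohorts differed in the same way, by -0.10 and -0.13 for Actb and by 0.41 and 0.55 for the hybridisation controls. Array medians differed by 0.03 in HIP and -0.01 in P/FC (exact permutation, adjusted p = 0.125 and 0.444).

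**Figure D5:**
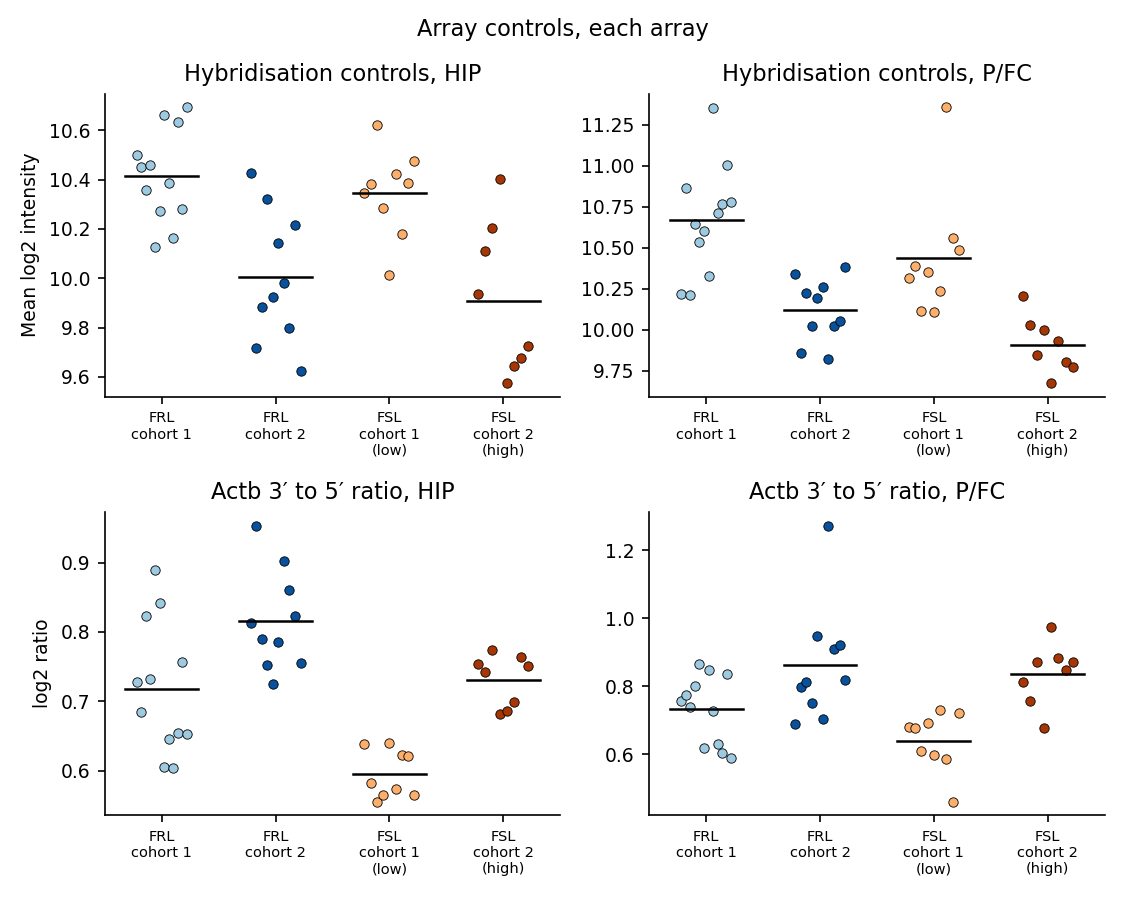
Mean log2 intensity of the 18 hybridisation controls and the Actb 3' to 5' log2 ratio on each array, by line, cohort and region, with a bar at the mean. The controls are brighter in cohort 1 (10.35 against 9.91 in FSL HIP), and the Actb ratios of low and high FSL HIP arrays lie apart.

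These measures share their difference with the class, and a model that holds both has little left to tell them by. With the Actb ratio as a covariate, 163 probesets passed in HIP, 464 in P/FC and 70 in both. Of the 4278 called in HIP 4127 kept their sign and the median size was 0.304 in place of 0.309, while the median SE was 0.164 in place of 0.0729. Of the 3378 called in P/FC 3364 kept their sign, with a median size of 0.312 in place of 0.350 and a median SE of 0.128 in place of 0.0837. Of the 20 largest shared falls and rises, Pogz, 1379511_at and 1385594_at kept their call in both regions, and all 20 kept their sign, as for Atp1b2 (-1.95 in HIP, adjusted p = 0.168) and Nr4a2 on 1387410_at (-1.97, adjusted p = 0.134). With the hybridisation controls as a covariate 318 passed in both regions, and 11 of the 20 kept their call, Nr4a3, Gsk3b, Sppl2a, Snx27, Dusp18, Nr4a2 and Pogz among them. With the Gapdh ratio 418 passed in both, and 12 of the 20 kept it.

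Markers of tissue and cell types gave a mixed picture. In HIP the 2 tested blood markers were higher in low arrays with classes apart, the haemoglobin Hbb at 1227 to 3763 (median 2008) against 444 to 1093 (median 778, difference 1.52, adjusted p = 0.000233) and Alas2, of haem synthesis, at 52.8 to 120.2 against 31.8 to 50.3 (0.91, adjusted p = 0.00224). In P/FC they differed by 0.38 and 0.29 (adjusted p = 0.382 and 0.349). Of 10 neuron markers 3 were lower in HIP (30% against 18.7% of all probesets), among them Rbfox3, the antigen NeuN, on 1377095_at (-0.60, adjusted p = 0.00121). Its other probeset, 1376460_at, differed by 0.07 (adjusted p = 0.344). The summed intensity of the neuron list ran from 19933 to 21041 in low and from 21428 to 22904 in high arrays. In P/FC 2 of the 10 were higher (20% against 14.3%), with sums of 20781 to 23733 and 20409 to 23304. Astrocyte markers had 2 of 11 lower in HIP, and 1 higher and 1 lower in P/FC (18.2% in each, against 18.7% and 14.3%), and in HIP 6 of the 11 differences were above 0, with a median of 0.04. Of these Aqp4, the water channel of astrocyte end feet, read 1053 to 1230.4 against 1325 to 1623 in HIP (-0.36, adjusted p = 0.000148). Glul, glutamine synthetase, differed there by -0.14 on 1367632_at (adjusted p = 0.0103). Its other probesets were higher in low HIP arrays, 1367633_at by 0.46 (adjusted p = 0.000384) and 1386870_at by 0.18 (adjusted p = 0.0303), so that Glul had no single direction. Fewer cells of a type and less RNA per cell cannot be told apart in such bulk samples.

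Neighbouring tissue varied from array to array. Choroid plexus markers summed to 894 to 17770 (median 1224) in low and 787 to 1449 (median 864) in high HIP arrays, and striatum markers to 2705 to 7331 (median 5613) and 2270.1 to 7125 (median 3712) in P/FC, and no gene of either list passed. With the mean log2 intensity of these markers, not their sum, as a covariate, 3664 probesets passed in HIP, 2976 in P/FC and 973 in both. All 20 of the largest shared falls and rises kept their call in both regions in these fits. Meninges markers had no call in either region. Among microglia markers 1 of 11 was higher and 1 lower in HIP and none in P/FC, oligodendrocyte markers had 0 of 10 in HIP and 1 higher in P/FC, and their precursors 1 of 5 higher in HIP and none in P/FC. Interneuron markers had 1 higher and 1 lower of 10 in HIP and 2 higher and 1 lower in P/FC, and endothelial and mural markers 1 of 12 higher in HIP and 1 lower in P/FC. The shares called in HIP and P/FC were 18.2% and 0% for microglia, 0% and 10% for oligodendrocytes, 20% and 0% for their precursors, 20% and 30% for interneurons, and 8.33% in each for endothelial and mural cells, where all probesets had 18.7% and 14.3%. Striatum markers in HIP and choroid plexus markers in P/FC had no call. A list of 14 tested genes that had been measured by PCR had 1 call in each region (7.14%, against 18.7% and 14.3%): 1 was higher in HIP (Hprt1, 0.15, adjusted p = 0.00315) and 1 lower in P/FC (Arhgap32, -0.68, adjusted p = 0.0330, lost in 8 of 17 fits that left out 1 array). The part of blood and of the RNA measures in the differences was not tested beyond these covariate fits.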

How the data were processed

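The series holds 78 Affymetrix rat arrays of HIP or P/FC RNA. The deposited values are linear intensities, 1 for a probeset on an array, from which the authors had subtracted background and which they had normalised in Rosetta Resolver 5.1. They ran from -47 to 18830. The number of arrays, not read depth, limits the precision. Here intensities under 1 (1.04% of FSL values) were set to 1 and taken to log2. Tested were probesets that exceeded 30 on 6 or more of the 17 FSL arrays of a region, without the 57 controls and the Eif4ebp2 probeset. For low minus high, limma 3.58.1 (R 4.3.3) was run over the 17 FSL arrays of a region with no cohort term, as level and cohort were the same arrays, and p-values were adjusted by Benjamini and Hochberg over all kept probesets, with 0.05 as the threshold. This departs from the plan, which had cohort in the model. FRL cohorts, slopes with cohort, line differences and the region difference were fitted in the same way, and RNA measures were compared by two-sided exact permutation of all 17 arrays, not within cohort as planned. The limma fit was also run on simulated data with independent noise, which held no cohort effect and could not tell level from cohort. The labelling batch, which the authors modelled, is not in the labels. Labels do not give litters, so p-values measure the spread between these arrays. For low minus high by limma that is the spread within a cohort and not the spread between cohorts, as each level occurred in a single cohort.

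Of 31099 probesets, 20826 had 1 gene symbol, 436 several and 9780 none. Genes named are the 10 largest falls and 10 largest rises shared by the regions, the 5 largest each way in a region, up to 4 members of each of 19 gene lists, called neighbours of Eif4ebp2, the 5 smallest p between regions, and the other 4E-BPs, and further early genes were named after their values were seen. A list takes the brightest probeset of each gene. The members, lists and tests were chosen with earlier results of these data known. Alternatives were other filters, quantile scaling, 16 added before the logarithm, the level as a number, covariates, gene means and each array left out, and covariate fits with the hybridisation controls were added after seeing the data. Figures were drawn with matplotlib 3.10.9.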

Additional observations from a re-analysis of the deposited data

Results flagged for a closer look

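The low minus high difference was not the same in the 2 regions for 1215 probesets (limma, region by level). Those with the smallest p, as P/FC minus HIP, were Sh3bgrl1 (0.86), Ttyh1 (0.51), 1373559_at (-0.76), 1382871_at (0.65) and C20h6orf89 (-0.70), each with an adjusted p of 0.000253. Sh3bgrl1, a small thioredoxin-like protein, rose in P/FC (0.66) and had -0.20 in HIP. Ttyh1, a glial membrane protein, fell in HIP on probeset 1397511_at (-0.37) and had 0.14 in P/FC. Probeset 1398578_at of Ttyh1 went the same ways (-0.13 and 0.23, limma adjusted p = 0.0402 and 0.0107). Probeset 1375905_at of Ttyh1 was lower in low arrays in both regions (-0.35 and -0.17, limma adjusted p = 6.97e-05 and 0.021). Probeset 1383858_at of Ttyh1 passed in neither region (-0.05 and -0.08, limma adjusted p = 0.545 and 0.294). Among the early genes, Nr4a3 on 1369067_at (-1.005) and Egr2 (-0.86) were further below 0 in P/FC, Jun (-0.32) fell in P/FC and had -0.01 in HIP, and Nr4a3 on 1393389_at (-0.60) was above 0 in HIP (0.18) and below it in P/FC (-0.42). Of the largest shared differences, 1382068_at (1.13), 1385594_at (-0.44) and 1379511_at (-0.56) were smaller in P/FC.

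Of 150 groups of 4 to 10 arrays checked for 1 array far from the rest, 12 had one, and chance gives about 1 in 20. As log2 intensities these were Sppl2a 1375362_at on FSL HIP cohort 2 replicate 8 (6.67), 1375850_at on FSL P/FC cohort 2 replicate 7 (6.05), Dusp18 1378749_at on FSL P/FC cohort 2 replicate 6 (3.51), Pogz 1389784_at on FSL HIP cohort 1 replicate 5 (6.47), 1394153_at on FSL HIP cohort 1 replicate 6 (5.73) and 1390116_at on FRL HIP cohort 2 replicate 3 (7.62). FSL HIP cohort 2 replicate 6 stood apart for 1385594_at (5.75) and 1398445_at (4.96). Among RNA and control measures, the Gapdh ratio stood apart on FSL HIP cohort 2 replicate 2 (0.989), the Actb ratio on FRL P/FC cohort 2 replicate 7 (1.27), the array median on FSL HIP cohort 1 replicate 2 (5.96) and the hybridisation controls on FSL P/FC cohort 1 replicate 7 (11.4).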

How the results depend on the processing

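Cohort could not be held apart from the level, fits within 1 cohort and with the level of the other region's array were not run, and low intensities lie near background. The HIP count of 4278 became 163 with the Actb ratio as a covariate and 1749 with the hybridisation controls, and the P/FC count of 3378 became 464, 647 and, with the Gapdh ratio, 1136. Gene means, which are fewer to test, gave 2141 of 11693 in HIP (18.3%, against 18.7% of probesets) and 1481 of 11956 in P/FC (12.4% against 14.3%). The shared 1163 became 418 (Gapdh), 70 (Actb) and 318 (hybridisation controls). Early genes lower in low HIP arrays (6) became 1 (Actb) and 3 (hybridisation controls), and those in P/FC (13) became 6 (Gapdh), 2 (Actb) and 3 (hybridisation controls). Of the other settings run, none moved these counts by over 1.5 times. With the Actb ratio, Eif4a1 (-0.0237) and Fmr1 (0.16) in HIP and Eif4ebp1 (0.000253) in P/FC changed sign. Of 132 named values, 94 kept their side of the threshold with the Gapdh ratio, 28 with the Actb ratio and 76 with the hybridisation controls. Leaving out 1 array gave 3431 to 4855 calls in HIP, 2832 to 3478 in P/FC, 1010 to 1210 shared, and 4 to 6 and 12 to 13 early genes. It kept 2088 of 2244 values of named probesets on their side of the threshold, with 156 lost from 19 named values, none of them among the 20 largest shared differences. No paired analysis was possible because within a region each replicate number names 1 array of a cohort. Across regions same-numbered arrays deviated together in 5 of 17 pairs (r over 0.1, median 0.0115), so that the numbers were not taken as pairs, and the replicate block gave 1467 calls for the region difference in place of 1215.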
